A study of Homo sapiens with 8 samples.

Results

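The matrix metalloproteinases (MMPs), the ADAM and ADAMTS proteases and their inhibitors, the TIMPs, were followed through RNA-seq of H9 human embryonic stem cells (hESCs), an established line. The members were all genes whose symbol has one of these family names with a number. This gave 48 of the 20344 genes listed in at least 1 of the 2 deposited tables, namely 12 MMPs, 13 ADAMs, 19 ADAMTS genes and 4 TIMPs. All 48 were in the crowding table and 47 in the knockdown table, from which ADAM32 was missing.

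The study sequenced 8 libraries of undifferentiated H9 cells grown on Matrigel. In the crowding experiment, 2 libraries came from cells at low density (labelled small) and 2 from cells at high density (labelled crowded), to ask which genes respond when cells are packed. In the knockdown experiment, 2 libraries came from cells with a control hairpin (Ctrl) and 2 from cells with shRNA against ETV4 (ETV4 KD). ETV4 is an ETS-family transcription factor of the PEA3 group, and the labels do not name the hairpin, so the 2 ETV4 KD libraries may carry the same hairpin or different ones. No library is shared between the experiments. The labels do not say whether the replicates were separate cultures, and the study states only in general terms that its experiments were repeated independently. The p-values therefore measure the spread between these libraries, which may be technical.

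The MMPs cut matrix proteins, and 6 of the members listed here are anchored in the plasma membrane, where MMP14 also activates MMP2. The ADAMs are membrane proteins that release growth factors, receptors and adhesion molecules from the cell surface, although ADAM11, ADAM22 and ADAM23 lack a working catalytic site and act in adhesion. The ADAMTS proteases are secreted and cut proteoglycans, procollagens and other matrix proteins. The TIMPs bind the active site of these enzymes and block it, and hESCs rest on a laminin-rich matrix that such enzymes can cut.

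Total counts on genes ran from 50359703 to 62410168 reads per library. ETV4 itself stood at 90.8 and 95.1 FPKM (fragments scaled by transcript length and mapped reads) in Ctrl and at 45.6 and 40.9 FPKM in ETV4 KD, and at 73.2 and 72.6 FPKM in small and 54.2 and 53.9 FPKM in crowded libraries. Its log2 fold change was -1.15 in the knockdown and -0.49 on crowding, which is just inside the fold threshold used below. All 7 hESC markers of the list used were present in both tables, with a summed level of 2502 to 2830 FPKM. None was called on crowding with edgeR by the rule given below, and in ETV4 KD TDGF1 was lower (log2 fold change -0.82) and LIN28A higher (0.51). Nearest to a call on crowding were NANOG (-0.46, adjusted p = 3.36e-06) and SOX2 (0.41, adjusted p = 6.71e-06), both inside the fold threshold. NANOG was also inside it in ETV4 KD (-0.44, adjusted p = 0.0165). Of 9 fibroblast markers, LUM and DCN were listed in neither table and COL3A1 not in the crowding table. The summed level of the others was 118 and 120 FPKM in small and 84.6 and 85.3 FPKM in crowded libraries, and 156 and 159 FPKM in Ctrl and 128 and 119 FPKM in ETV4 KD libraries. Most of it was THY1 and COL1A1, which hESCs also express. THY1 was called lower in both experiments (-0.63 and -0.81). COL1A1 was not called on crowding (-0.44) and was called higher in ETV4 KD, from 21.5 and 22.4 FPKM to 44.9 and 42.8 FPKM. PDGFRB was called lower in both experiments (-1.58 and -0.54). POSTN was called lower on crowding only (-1.71), from 0.329 and 0.258 FPKM in small libraries. COL1A2 and PDGFRA were called in neither. The neuroectoderm list, nearly all NES, summed to 78.3 and 76.8 FPKM in small, 56.9 and 53.1 FPKM in crowded, 44.1 and 49.5 FPKM in Ctrl and 58.3 and 63.9 FPKM in ETV4 KD libraries. The endothelial and blood list, nearly all KDR, summed to 24.8 and 23.7 FPKM, 31.3 and 35.8 FPKM, 30.4 and 29.1 FPKM, and 21.0 and 14.4 FPKM in the same order. Mesendoderm markers summed to at most 1.24 FPKM and those of trophoblast or amnion to at most 4.36 FPKM in any library. Of these lists, SOX1 was called higher and NES, LHX2 and FOXA2 lower on crowding, and GATA4 higher and KDR, CDH5 and GABRP lower in ETV4 KD. SOX1, LHX2, FOXA2, GATA4 and CDH5 were near the floor, with at most 0.281 FPKM in any library. In bulk RNA, fewer cells of a type and less RNA per cell cannot be told apart, and the part of these markers in the results was not tested.

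Most members were expressed at low to moderate levels. On average over the crowding libraries, 7 members had at least 10 FPKM, 28 lay between 1 and 10 FPKM and 13 lay below 1 FPKM, with a median of 2.86 FPKM against 3.22 FPKM for all listed genes. Over the knockdown libraries the numbers were 6, 28 and 13, with a median of 2.08 FPKM against 3.42 FPKM. A gene is listed in a table only if every library there had at least 1 read. The collagenases MMP1, MMP8 and MMP13, the matrilysins MMP7 and MMP26 and the stromelysins MMP3 and MMP10 were not listed in either table.

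Most of the summed MMP level came from the 6 membrane-type enzymes. They made up 65.6 and 67.4 of 90.0 and 89.7 FPKM in small libraries and 53.5 and 53.9 of 67.6 and 68.7 FPKM in Ctrl. Of the gelatinases MMP2 and MMP9, MMP9 had only 3.14 and 2.67 FPKM in small libraries. In small libraries the highest was MMP24, a membrane-type MMP, at 17.7 and 17.7 FPKM. MMP14, the main activator of MMP2, followed at 15.2 and 15.7 FPKM, MMP2 at 15.4 and 13.9 FPKM and MMP15 at 13.4 and 13.6 FPKM. The values of MMP14 and MMP2 overlapped, so their order is not fixed. In Ctrl libraries MMP14 was the highest at 15.6 and 16.4 FPKM, then MMP15 at 13.0 and 14.1 FPKM, while MMP24 stood at 6.56 and 5.98 FPKM. The tables were normalized separately, so levels of the 2 experiments are set side by side here without a comparison.

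Among the ADAMs, ADAM10, the protease that starts Notch cleavage, was the highest in small libraries with 11.1 and 10.5 FPKM. In Ctrl libraries it had 11.7 and 11.7 FPKM, next to ADAM15 with 11.0 and 11.7 FPKM, and their order is not fixed. By the mean over all 4 knockdown libraries, ADAM15 and ADAM9 stood above ADAM10. ADAM17, which releases EGF-family ligands, stood at 6.90 and 6.15 FPKM and at 8.13 and 8.07 FPKM. ADAMTS7, which cuts the cartilage oligomeric matrix protein, was the highest ADAMTS gene, at 9.05 and 9.99 FPKM in small and 9.32 and 10.1 FPKM in Ctrl libraries. TIMP1 was the highest inhibitor, with 23.3 and 28.3 FPKM in small and 31.7 and 35.4 FPKM in Ctrl libraries. The lowest were ADAM12, ADAM28, ADAM32, ADAMTS5, ADAMTS6, ADAMTS9 and ADAMTS18, with at most 0.266 FPKM in any library.

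**Figure D1:**
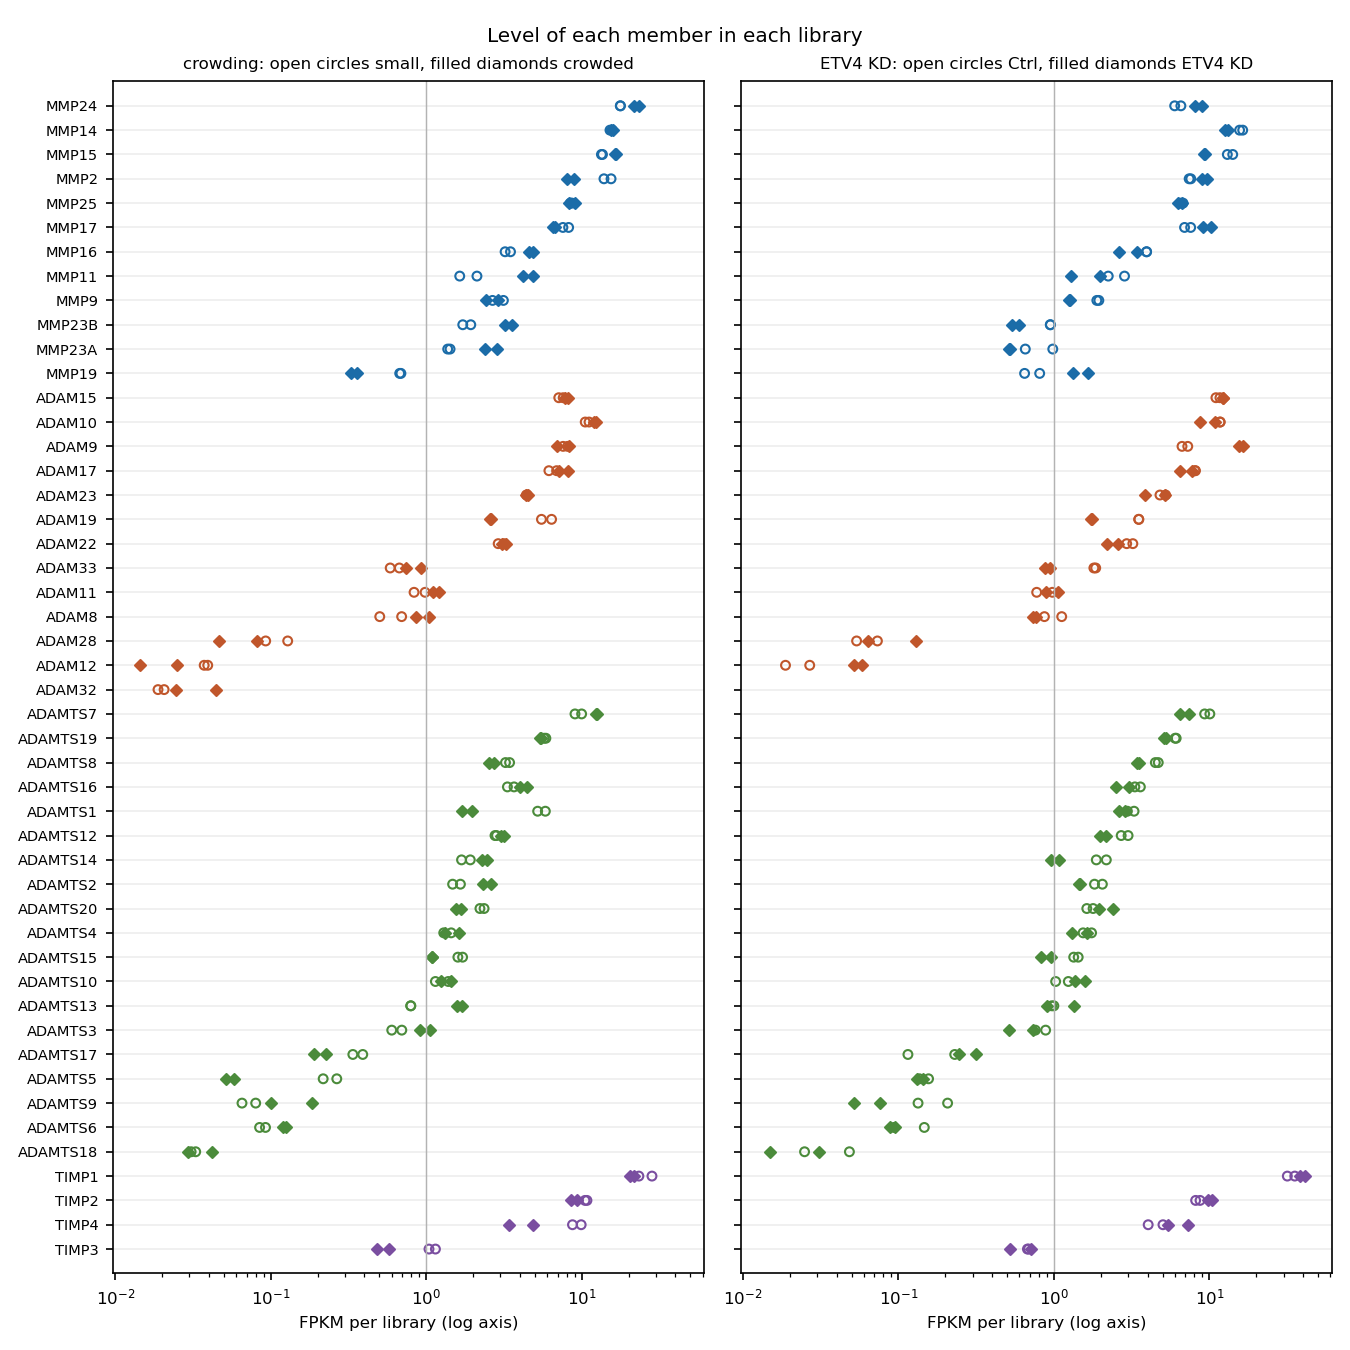
Level of each member in FPKM (log axis) in each library, by family, with the crowding experiment on the left and the knockdown experiment on the right. Open circles are the control libraries and filled diamonds the crowded or ETV4 KD libraries. TIMP1 has the highest mean in both tables, MMP2 and TIMP4 lie lower in both crowded libraries, and ADAM9 lies higher in both ETV4 KD libraries.

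Each family had members called on crowding, though not always above the share of all genes. With edgeR's quasi-likelihood test on the counts, a gene was called when its p-value, adjusted by Benjamini-Hochberg over all 17672 genes tested, was below 0.05 and its absolute log2 fold change was over 0.5. Of the 47 members tested, 8 were higher in crowded cells (17.0%), against 10.7% of all genes tested. Another 11 were lower (23.4%), against 5.47% of all genes tested. The median log2 fold change of the members was 0.01 and that of all genes 0.00, so the calls lay on both sides of no net shift. ADAM32, with 3 to 9 reads per library, was not tested.

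The 4 TIMPs were all measured lower in crowded cells. TIMP4 had 9.92 and 8.72 FPKM in small and 4.83 and 3.43 FPKM in crowded libraries. Both crowded values lay below both small values, and the log2 fold change was -1.23 (SE 0.15, adjusted p = 3.8e-06). TIMP3, the inhibitor that binds to the matrix and also blocks ADAM17, had 1.15 and 1.04 FPKM in small and 0.577 and 0.480 FPKM in crowded libraries, again without overlap. Its log2 fold change was -1.10 (SE 0.17, adjusted p = 2.35e-05). TIMP1 went from 23.3 and 28.3 FPKM to 21.8 and 20.5 FPKM, a log2 fold change of -0.35 (SE 0.09, adjusted p = 0.00556). TIMP2, which joins MMP14 in activating MMP2, went from 10.8 and 10.5 FPKM to 9.33 and 8.51 FPKM, a log2 fold change of -0.31 (SE 0.07, adjusted p = 0.0014). TIMP1 and TIMP2 passed the p threshold but not the fold threshold. On GRCh37, with GENCODE annotation, TIMP1 lies at chrX:47441807-47446188, TIMP2 at chr17:76849059-76921469, TIMP3 at chr22:33197691-33259028 and TIMP4 at chr3:12194568-12200412. Each overlaps another coding gene, namely SYN1, CEP295NL, SYN3 and SYN2 for TIMP1 to TIMP4, and it is not stated whether reads were counted by strand. In all, 13 of the 48 members overlap a coding gene, among them also ADAM9, ADAM19, ADAMTS7, ADAMTS13 and MMP24.

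Among the MMPs, 3 were called higher and 2 lower. MMP2, the gelatinase that cuts basement membrane collagen, fell from 15.4 and 13.9 FPKM to 8.91 and 8.05 FPKM. MMP2 lies at chr16:55423612-55540603 on the plus strand of GRCh37 and overlaps no other coding gene, though it overlaps non-coding genes such as MMP2-AS1. The log2 fold change was -0.86 (SE 0.07, adjusted p = 1.5e-08), or 0.551 times the level in small libraries. MMP19, which also cuts basement membrane proteins, fell from 0.687 and 0.675 FPKM to 0.328 and 0.359 FPKM, a log2 fold change of -1.01 (SE 0.23, adjusted p = 0.00139). MMP11, a stromelysin that is activated inside the cell by furin, rose from 2.12 and 1.64 FPKM to 4.22 and 4.89 FPKM. Its log2 fold change was 1.22 (SE 0.14, adjusted p = 1.09e-06), and the groups did not overlap.

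MMP23B and its near-identical copy MMP23A, annotated as a pseudogene, were the other MMPs called higher. MMP23B went from 1.72 and 1.93 FPKM to 3.19 and 3.56 FPKM and MMP23A from 1.37 and 1.42 FPKM to 2.39 and 2.87 FPKM. Reads cannot be divided with certainty between copies this alike, so these are better read as 1 measurement. None of the 6 membrane-type MMPs was called by edgeR or DESeq2, although 4 had an unadjusted p below 0.05. MMP14 stood at 15.2 and 15.7 FPKM in small and 15.9 and 15.4 FPKM in crowded libraries, and these ranges overlapped (log2 fold change -0.04, SE 0.06, adjusted p = 0.628). MMP16 (0.45), MMP24 (0.29) and MMP15 (0.23) had positive log2 fold changes with adjusted p of 1.74e-05, 0.000447 and 0.00301, all inside the fold threshold, and MMP17 had one of -0.31 (adjusted p = 0.00626). MMP9, the other gelatinase, was not called (-0.19, adjusted p = 0.314).

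Of the 12 ADAMs tested, 1 was called higher (8.33%, against 10.7% of all genes tested) and 2 lower (16.7%, against 5.47%). ADAM19, which releases neuregulins, fell from 6.40 and 5.51 FPKM to 2.59 and 2.59 FPKM, a log2 fold change of -1.26 (SE 0.08, adjusted p = 2.72e-10). ADAM8 rose from 0.502 and 0.695 FPKM to 0.862 and 1.04 FPKM (log2 fold change 0.61, adjusted p = 0.0282), and ADAM28, with 22 to 49 reads per library, fell by 1.05 on the log2 scale (adjusted p = 0.0224). Both calls depended on single libraries and on the tool. With DESeq2 the adjusted p was 0.0625 for ADAM8 and 0.0985 for ADAM28. With edgeR, ADAM8 had an adjusted p of 0.31 without small replicate 1 and of 0.123 without crowded replicate 2, and ADAM28 had one of 0.193 without small replicate 1 and of 0.0592 without crowded replicate 1. The widely expressed sheddases were not called, with log2 fold changes of 0.11 (SE 0.06) for ADAM10, 0.18 (SE 0.08) for ADAM17, 0.07 (SE 0.08) for ADAM15 and -0.10 (SE 0.08) for ADAM9.

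The ADAMTS genes are taken here by substrate. Of the 7 that cut aggrecan or versican, 4 were called lower and 1 higher. ADAMTS1 fell from 5.21 and 5.84 FPKM to 1.96 and 1.70 FPKM, a log2 fold change of -1.65 (SE 0.09, adjusted p = 2.75e-11). ADAMTS5, the main aggrecanase of cartilage, was low in every library (0.217 and 0.266 FPKM in small, 0.0576 and 0.0517 FPKM in crowded) and fell by 2.19 on the log2 scale (SE 0.26, adjusted p = 1.4e-06). ADAMTS15 (-0.65, adjusted p = 0.000207) and ADAMTS20 (-0.56, adjusted p = 0.000119) were lower too. ADAMTS20 dropped inside the fold threshold, at -0.49, without crowded replicate 2. The member called higher was ADAMTS9 (0.89, adjusted p = 0.039), with 35 to 100 reads per library. Its adjusted p was 0.0549 without small replicate 1, 0.186 without small replicate 2 and 0.504 without crowded replicate 2, and 0.129 with DESeq2.

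Of the 3 procollagen N-propeptidases, which trim fibrillar procollagens or their relatives before assembly, 2 were called higher. ADAMTS2 rose from 1.66 and 1.48 FPKM to 2.60 and 2.31 FPKM (log2 fold change 0.70, SE 0.10, adjusted p = 2.04e-05). ADAMTS3 rose too (log2 fold change 0.55, adjusted p = 0.00792), but was inside the fold threshold at 0.44 without small replicate 2 and at 0.44 without crowded replicate 2. ADAMTS14 had a log2 fold change of 0.34 (adjusted p = 0.0123). Of the other 9 ADAMTS genes, ADAMTS13, which cuts von Willebrand factor, rose from 0.795 and 0.796 FPKM to 1.58 and 1.69 FPKM (1.02, SE 0.14, adjusted p = 9.7e-06). ADAMTS17 fell by 0.87 on the log2 scale (adjusted p = 0.00453, and 0.0599 without small replicate 1). Without crowded replicate 2, the number of members called higher was 5 instead of 8.

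**Figure D2:**
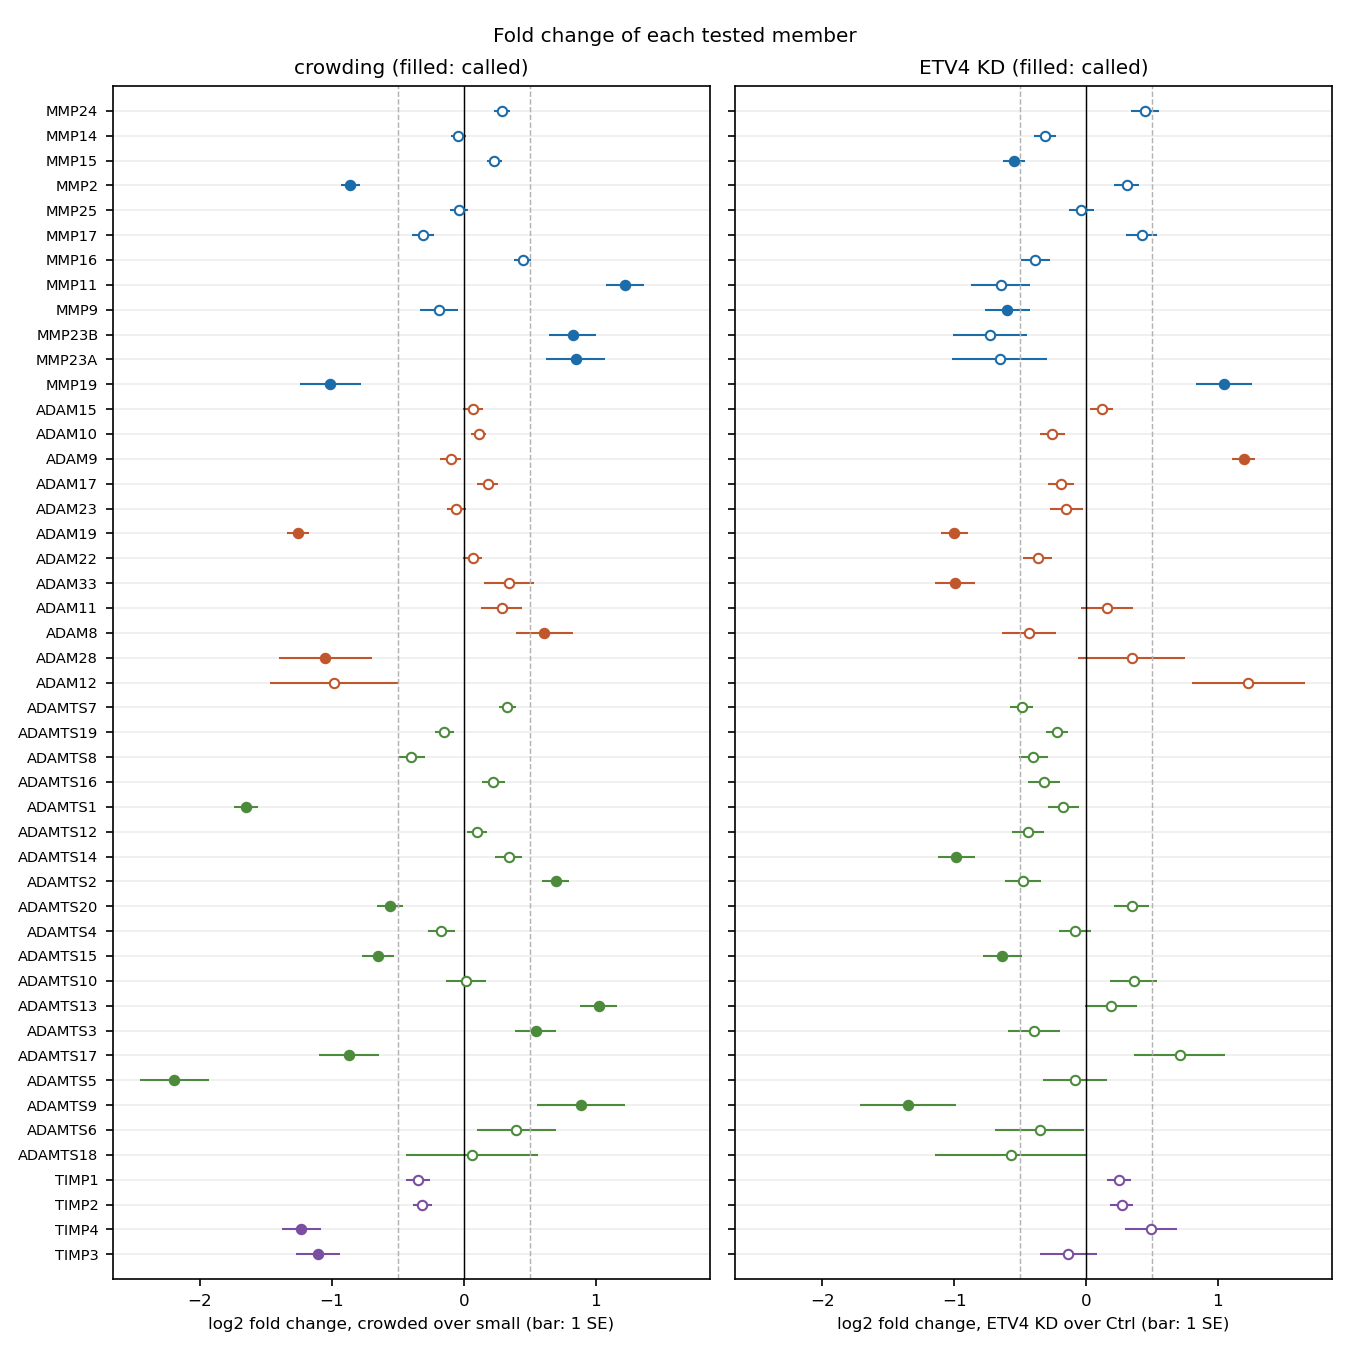
Log2 fold change of each tested member with 1 standard error, for crowded over small (left) and ETV4 KD over Ctrl (right), coloured by family. Filled points were called and dashed lines mark a log2 fold change of 0.5 in either direction. All 4 TIMPs lie left of 0 on crowding, and ADAM19 lies near -1 in both panels.

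Fewer members were called in ETV4 KD. The replicates spread more here, with edgeR's coefficient of variation at 9.93% against 6.83% on crowding. The members' median absolute log2 fold change was 0.395, against 0.347 on crowding, so the number of calls does not measure the size of the changes. Of the 47 tested, 2 were higher in ETV4 KD (4.26%), against 5.88% of the 17879 genes tested, which is no excess over the background. Another 7 were lower (14.9%), against 7.1% of all genes tested. The median log2 fold change of the members was -0.22, against 0.00 for all genes, and 31 of the 47 were below 0.

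ADAM9, a widely expressed sheddase, was called higher. It had 7.26 and 6.67 FPKM in Ctrl and 16.4 and 15.5 FPKM in ETV4 KD libraries. Both ETV4 KD values were above both Ctrl values, and the log2 fold change was 1.20 (SE 0.09, adjusted p = 0.000254). ADAM9 made up 13.6% and 12.4% of the summed FPKM of the ADAMs in Ctrl and 27.6% and 29.1% in ETV4 KD. The other member called higher was MMP19, from 0.648 and 0.810 FPKM to 1.33 and 1.66 FPKM (1.05, SE 0.21, adjusted p = 0.0132).

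Of the members called lower, ADAM19 went from 3.51 and 3.51 FPKM to 1.76 and 1.74 FPKM, a log2 fold change of -0.998 (SE 0.10, adjusted p = 0.000994). ADAM33, a gene linked to asthma, went from 1.81 and 1.86 FPKM to 0.942 and 0.880 FPKM, a log2 fold change of -0.99 (SE 0.15, adjusted p = 0.00438). ADAMTS14 went from 1.87 and 2.17 FPKM to 1.08 and 0.960 FPKM (-0.98, SE 0.14, adjusted p = 0.00355). For these 3 genes both ETV4 KD values lay below both Ctrl values, at 0.501, 0.502 and 0.506 times the control level.

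MMP15, a membrane-type MMP that can activate MMP2, went from 13.0 and 14.1 FPKM to 9.31 and 9.23 FPKM. Its log2 fold change was -0.55 (SE 0.08, adjusted p = 0.00454), and without Ctrl replicate 2 it was -0.49, inside the fold threshold. MMP14 went from 15.6 and 16.4 FPKM to 12.6 and 13.2 FPKM. The groups did not overlap, but the log2 fold change of -0.31 (SE 0.08, adjusted p = 0.0339) was inside the fold threshold. The other membrane-type MMPs did not share a direction, and all were inside the fold threshold. MMP24 (0.45, adjusted p = 0.022) and MMP17 (0.42, adjusted p = 0.0368) were measured higher. MMP16 (-0.38, adjusted p = 0.041) was measured lower, and MMP25 had a log2 fold change of -0.03 (adjusted p = 0.818). MMP9 went from 1.89 and 1.94 FPKM to 1.26 and 1.26 FPKM (-0.60, SE 0.17, adjusted p = 0.0404). Its adjusted p rose above 0.05 when any 1 of the 4 libraries was left out, to 0.202 and 0.2 without either Ctrl library and 0.0501 and 0.0589 without either ETV4 KD library. MMP2 (0.31, adjusted p = 0.0502) was not called. MMP11 (-0.65) was not called by edgeR (adjusted p = 0.0694), but was called by DESeq2 (adjusted p = 0.0358), by edgeR with the replicate number as a block (adjusted p = 0.0132) and by edgeR without Ctrl replicate 1 (adjusted p = 0.04) or ETV4 KD replicate 1 (adjusted p = 0.0072).

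ADAMTS15 (-0.64, adjusted p = 0.0203) and ADAMTS9 (-1.35, adjusted p = 0.0325) completed the members called lower. ADAMTS9 rested on 25 to 99 reads per library and had an adjusted p of 0.216 without Ctrl replicate 1 and 0.0643 without ETV4 KD replicate 1. ADAMTS15 had one of 0.148 without Ctrl replicate 1 and 0.0535 without Ctrl replicate 2. None of the 4 TIMPs was called by edgeR or DESeq2, while 3 had an unadjusted p below 0.05. TIMP1 had 31.7 and 35.4 FPKM in Ctrl and 41.3 and 38.4 FPKM in ETV4 KD (0.25, adjusted p = 0.0888, unadjusted p = 0.0262), TIMP2 a log2 fold change of 0.27 (adjusted p = 0.0547), TIMP4 one of 0.49 (adjusted p = 0.108) and TIMP3 one of -0.13 (adjusted p = 0.693). Without ETV4 KD replicate 1, the number of members called higher was 5 instead of 2.

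ETS-family factors bind DNA around a GGAA core, and the PEA3 group is named for a site read as AGGAAG. RefSeq promoter windows (GRCh38.p14) were at hand for 28 of the 48 members, and the 250 bases before the annotated start were searched on both strands. AGGAAG was found in 7 of the 28 windows (25.0%), against 28.7% of all 35116 windows in the table, and CCGGAA, another common ETS site, in 3 (10.7%), against 14.5%. The short core GGAA was in 27 (96.4%), against 92.7%, and so says little, and every AGGAAG or CCGGAA also holds it. The members are thus close to the share of all windows for all of these letters. A single window was taken per member, whereas the windows of the background were not reduced to a single one per gene. The shares are therefore over unlike sets. Of the 7 members called lower in ETV4 KD, MMP15, ADAM19 and ADAMTS14 had a window. None of these held AGGAAG or CCGGAA. They are printed below with MMP14, and with TIMP4, whose window held AGGAAG. Each runs 5′ to 3′ on the strand of the gene, with the GGAA core, or TTCC where it lies on the other strand, in capitals.
MMP15 (chr16:58025504-58025753, plus strand): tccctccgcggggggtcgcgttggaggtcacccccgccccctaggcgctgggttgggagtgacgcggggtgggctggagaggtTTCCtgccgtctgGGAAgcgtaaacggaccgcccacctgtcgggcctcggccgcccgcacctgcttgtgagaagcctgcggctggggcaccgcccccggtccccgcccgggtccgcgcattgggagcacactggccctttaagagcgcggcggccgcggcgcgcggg
ADAM19 (chr5:157575776-157576025, minus strand): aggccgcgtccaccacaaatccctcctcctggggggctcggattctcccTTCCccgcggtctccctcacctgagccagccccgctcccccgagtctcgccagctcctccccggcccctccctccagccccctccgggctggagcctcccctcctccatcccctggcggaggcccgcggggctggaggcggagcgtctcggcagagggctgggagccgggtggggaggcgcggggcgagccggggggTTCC
ADAMTS14 (chr10:70672256-70672505, plus strand): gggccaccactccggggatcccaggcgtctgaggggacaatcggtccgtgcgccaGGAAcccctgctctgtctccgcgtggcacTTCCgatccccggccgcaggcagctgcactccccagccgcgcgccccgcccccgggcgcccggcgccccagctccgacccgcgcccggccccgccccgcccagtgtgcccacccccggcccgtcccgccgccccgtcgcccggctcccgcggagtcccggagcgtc
MMP14 (chr14:22836335-22836584, plus strand): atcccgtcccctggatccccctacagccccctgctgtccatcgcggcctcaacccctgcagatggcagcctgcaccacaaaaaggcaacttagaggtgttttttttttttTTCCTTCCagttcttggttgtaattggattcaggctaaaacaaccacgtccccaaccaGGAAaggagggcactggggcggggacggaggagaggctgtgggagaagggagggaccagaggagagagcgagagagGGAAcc
TIMP4 (chr3:12158913-12159162, minus strand): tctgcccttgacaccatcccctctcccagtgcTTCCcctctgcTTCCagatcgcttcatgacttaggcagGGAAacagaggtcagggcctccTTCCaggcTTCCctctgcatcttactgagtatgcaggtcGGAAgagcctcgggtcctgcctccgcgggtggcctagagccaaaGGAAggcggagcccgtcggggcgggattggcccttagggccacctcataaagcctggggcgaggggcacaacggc

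The windows differ in how many cores they hold. MMP15, ADAM19 and ADAMTS14 have 2 each, MMP14 has 4 and TIMP4 has 7. The AGGAAG of TIMP4 starts 76 bases before the annotated start and that of TIMP1 87 bases before it. A match is a description of letters in a window and not a site of binding, and binding was not measured here.

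The question that joins both experiments is whether the members respond to crowding as they do to loss of ETV4, whose RNA was lower in both. In 1 edgeR fit of the counts of all 8 libraries, over the 18679 genes listed in both tables, the log2 fold change on crowding minus that in ETV4 KD was tested for each gene. Of the 47 members, 15 had a higher response to crowding (31.9%), against 15% of the 17790 genes tested, and 14 a lower one (29.8%), against 12.5%.

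All 4 TIMPs differed in the same direction, with a lower response to crowding. The difference in log2 fold change was -0.60 for TIMP1 (SE 0.14, adjusted p = 0.00519), -0.59 for TIMP2 (SE 0.11, adjusted p = 0.00118), -0.98 for TIMP3 (SE 0.27, adjusted p = 0.0129) and -1.73 for TIMP4 (SE 0.27, adjusted p = 0.000475). The call of TIMP1 was lost without small replicate 2, where the difference was -0.46. That of TIMP3 was lost without small replicate 1 (adjusted p = 0.0604) and without crowded replicate 2 (adjusted p = 0.0607).

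Of the MMPs, 8 of 12 differed. MMP19 had the largest gap, with a difference of -2.06 (SE 0.30, adjusted p = 0.000258), being called lower on crowding and higher in ETV4 KD. MMP2 had a difference of -1.18 (SE 0.12), MMP11 of 1.86 (SE 0.28), MMP15 of 0.77 (SE 0.09), MMP16 of 0.82 (SE 0.13) and MMP17 of -0.74 (SE 0.14). MMP23B had a difference of 1.55 and MMP23A differed in the same direction, though its adjusted p was 0.0593 without Ctrl replicate 1. For MMP14 the difference was 0.26 (SE 0.10, adjusted p = 0.0512) and was not called.

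Among the ADAMs, ADAM9 (-1.30, SE 0.13), ADAM33 (1.33, SE 0.23), ADAM8 (1.04, SE 0.31), ADAM12 (-2.22, SE 0.61) and ADAM28 (-1.40, SE 0.51) differed. ADAM12 and ADAM28 had at most 49 reads in any library. ADAM28 kept its call under only 1 of the 8 libraries left out, and ADAM8 had an adjusted p of 0.0935 without small replicate 1, 0.079 without crowded replicate 2 and 0.0823 without Ctrl replicate 2. ADAM12 had one of 0.0537 without crowded replicate 2. With DESeq2 the adjusted p was 0.0599 for ADAM12 and 0.115 for ADAM28. ADAM19 did not pass, with a difference of -0.27 (SE 0.13, adjusted p = 0.123), and it is 1 of 2 members called lower in both experiments. The other is ADAMTS15, with a difference of -0.02 (SE 0.18, adjusted p = 0.932).

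Of the 19 ADAMTS genes, 12 differed, 8 upward and 4 downward. The largest gaps were those of ADAMTS9 (2.23, SE 0.52), called higher on crowding and lower in ETV4 KD, of ADAMTS5 (-2.11, SE 0.33), ADAMTS17 (-1.58, SE 0.42) and ADAMTS1 (-1.49, SE 0.16). The procollagen N-propeptidases ADAMTS2 (1.17), ADAMTS3 (0.94) and ADAMTS14 (1.32) all had a higher response to crowding. ADAMTS7, the highest ADAMTS gene, went from 9.05 and 9.99 FPKM to 12.5 and 12.4 FPKM on crowding and went from 9.32 and 10.1 FPKM to 7.37 and 6.42 FPKM in ETV4 KD. Its difference was 0.81 (SE 0.11, adjusted p = 0.000151), with neither single log2 fold change (0.33 and -0.49) past the fold threshold. The calls of ADAMTS3 and ADAMTS13 were lost without small replicate 2 and without crowded replicate 2, with adjusted p of 0.0519 to 0.0607. That of ADAMTS12 was lost without crowded replicate 2, where the difference was 0.49, and without Ctrl replicate 1 (adjusted p = 0.0579). That of ADAMTS16 was lost without small replicate 2, crowded replicate 2 or Ctrl replicate 1 (adjusted p of 0.0611 to 0.074), and without ETV4 KD replicate 2, where the difference was 0.43. Without crowded replicate 2, 21 members in place of 29 differed.

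**Figure D3:**
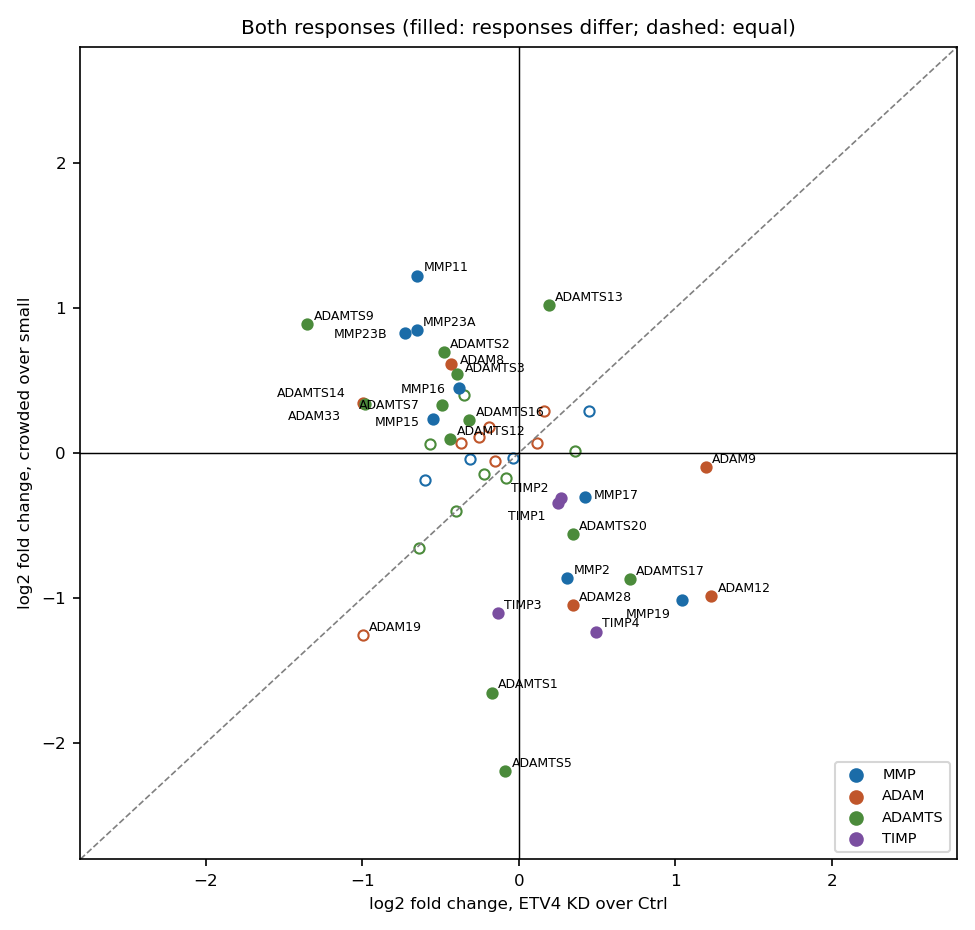
Log2 fold change of each of the 47 members in crowded over small (vertical) against ETV4 KD over Ctrl (horizontal), coloured by family. Filled points have responses that differ by the joint test, and the dashed line marks equal responses. ADAM9 and MMP19 are filled at the lower right, and ADAM19 lies near the line at -0.998 and -1.26.

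The summed levels put the families side by side. The 4 TIMPs together had 45.2 and 48.6 FPKM in small and 36.5 and 32.9 FPKM in crowded libraries, and 44.6 and 49.8 FPKM in Ctrl and 57.7 and 56.2 FPKM in ETV4 KD. The MMPs together went from 90.0 and 89.7 FPKM to 97.2 and 96.4 FPKM on crowding and from 67.6 and 68.7 FPKM to 63.6 and 65.5 FPKM in ETV4 KD. The ratio of summed TIMP to summed MMP FPKM was 0.502 and 0.542 in small, 0.376 and 0.341 in crowded, 0.659 and 0.726 in Ctrl and 0.907 and 0.857 in ETV4 KD libraries. The groups did not overlap in either experiment, the ratio being lower in crowded and higher in ETV4 KD libraries. TIMP1, called in neither experiment, made up 51.6% to 62.3% of the TIMP sum in the crowding libraries and 68.3% to 71.6% in the knockdown libraries. The MMP sum counts MMP23A beside MMP23B. With 2 libraries against 2, an exact permutation test of such a sum cannot go below p = 0.333.

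The ADAMTS genes together went from 41.7 and 42.4 FPKM to 35.4 and 32.6 FPKM in ETV4 KD, again without overlap. On crowding they stayed between 42.1 and 43.3 FPKM in all 4 libraries, although 9 of the 19 were called. The summed ADAMs overlapped between groups in both experiments. Whether the sum of the ADAMs was above or below its control depended on the scale, since summed CPM, which weights long transcripts more, gave 0.977 times on crowding and 0.968 times in ETV4 KD where summed FPKM gave 1.01 and 1.06 times.

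**Figure D4:**
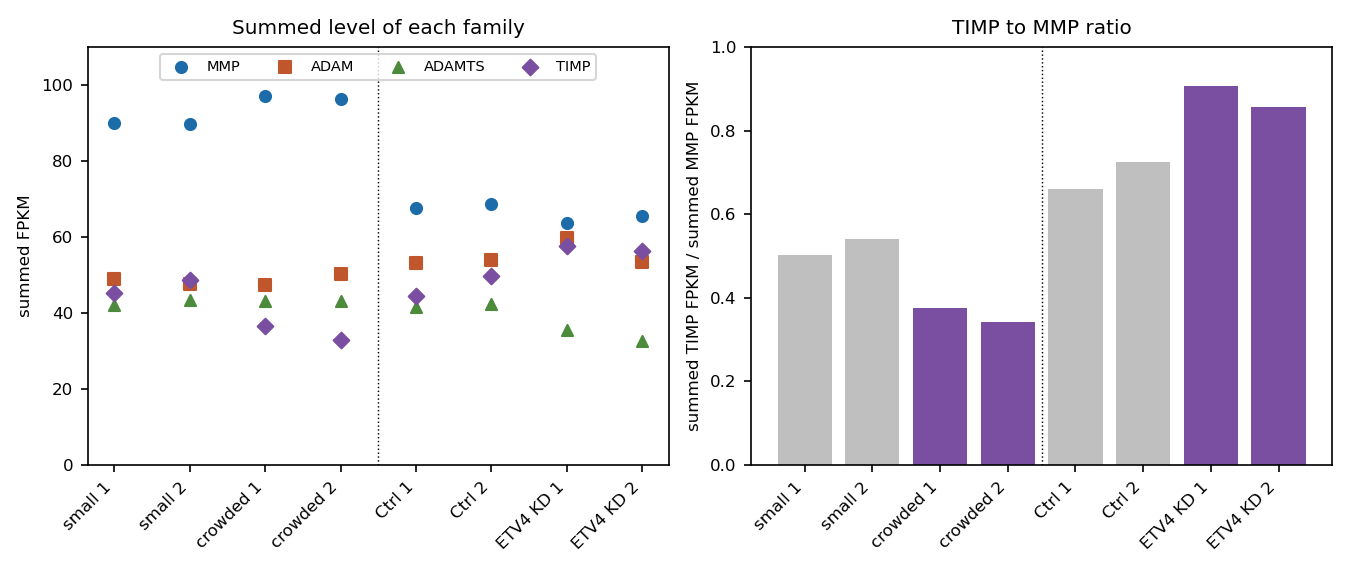
Summed FPKM of each family (left) and the ratio of summed TIMP to summed MMP FPKM (right, bars from 0) in each of the 8 libraries. A dotted line parts the experiments, which were normalized separately, and the right bars are grey for small and Ctrl and purple for crowded and ETV4 KD. The ratio is 0.341 to 0.376 in crowded libraries against 0.502 and 0.542 in small ones.

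Genes that act with these enzymes were counted from lists that were chosen with earlier results of these data known. Over all genes tested, 10.7% were called higher and 5.47% lower on crowding, and 5.88% higher and 7.1% lower in ETV4 KD. Of 16 activators, partners and other inhibitors tested, among them furin-type convertases, RECK and the tetraspanins that guide ADAM10, none passed both thresholds on crowding with edgeR, although 7 had an unadjusted and 6 an adjusted p below 0.05. One of these was PCSK5, a convertase that activates proproteins, just inside the fold threshold (-0.495, adjusted p = 0.000209). In ETV4 KD, PCSK5 fell by 0.70 on the log2 scale (adjusted p = 0.00858), and RHBDF2, which carries ADAM17 to the surface, fell by 0.80 (adjusted p = 0.00723). Of 7 ADAMTS-like genes tested, which share the ancillary domains but have no protease, 3 were called higher on crowding. One of them, ADAMTSL5, was near the floor, at 0.0375 and 0.0950 FPKM in small and 0.154 and 0.197 FPKM in crowded libraries (adjusted p = 0.0334). PAPLN had 1.17 and 1.10 FPKM in small and 8.43 and 6.70 FPKM in crowded libraries, a log2 fold change of 2.70 (SE 0.10, adjusted p = 1.43e-12). ADAMTSL4 rose by 0.84 on crowding and fell by 0.70 in ETV4 KD. Of the EGF-family ligands released by ADAMs, 1 of the 3 tested on crowding was called, HBEGF, which fell by 0.78 (adjusted p = 0.00429). Of the 4 tested in ETV4 KD, HBEGF rose by 0.74 (adjusted p = 0.0235) and TGFA fell by 0.54 (adjusted p = 0.0219). The last list held the astacins BMP1, TLL1 and TLL2, another group of metalloproteases, and PCOLCE and PCOLCE2, which enhance procollagen cleavage and have no protease activity of their own. None of these 5 was called by edgeR in either experiment. Those with an unadjusted p below 0.05 were BMP1 on crowding (0.46, adjusted p = 0.0493) and PCOLCE (0.43, adjusted p = 0.0191), TLL1 (-1.10, adjusted p = 0.118) and TLL2 (-0.59, adjusted p = 0.0833) in ETV4 KD.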

How the data were processed

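The authors made poly-A libraries of H9 hESC RNA with a stranded kit. The submitters' processing notes name Trimmomatic, HISAT2 2.1.0 and StringTie 2.1.3b with GRCh37. For each experiment the authors deposited a table of read counts per gene, not normalized, and of FPKM values, scaled by transcript length and mapped reads. Depth was 50359703 to 62410168 counts on genes per library. Another 16 per-sample columns, and columns with the authors' own fold change and p-values, were not used. The study's methods name DESeq2, which was run as an alternative.

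Counts were tested within each table by the robust quasi-likelihood test of edgeR 4.0.16 (R 4.3.3), after its default expression filter and TMM scaling. P-values were adjusted by Benjamini-Hochberg over all genes tested. The SE was taken from the fold change and the root of its F statistic. The difference of responses came from 1 joint fit of all 8 libraries. Alternatives used DESeq2 1.42.0, limma 3.58.1 on log2(FPKM + 0.5), other filters, normalization and pseudocounts, and each library left out. On simulated counts edgeR and DESeq2 kept close to their false call rate, whereas limma on log2 FPKM made more false calls than its threshold allows. The simulation gave all genes the same dispersion between replicates and changed only genes with higher counts. It therefore does not speak for calls on members with few reads.

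The members and lists were chosen with earlier results of these data known. Named were members called in any test, the 2 highest of each protease family, the TIMPs, and MMP2, MMP9, MMP11, MMP14 and MMP15. The others are given by level, range or count, with a few values beside their list that were chosen after being seen. The correlation of same-numbered libraries' deviations from their group mean was -0.04 on crowding and 0.09 in ETV4 KD, with only 2 pairs each, so the numbers were not taken as pairs. Replicates were not duplicates (chi-square per degree of freedom 5.68 to 22.7). Symbols of all 48 members matched GENCODE on GRCh37, where 33 overlap another gene and 13 a coding one.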

Additional observations from a re-analysis of the deposited data

How the results depend on the processing

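With the replicate block, 8 members were higher and 11 lower in crowded, 3 higher and 8 lower in ETV4 KD, and 29 differed between responses. The block added ADAMTS17 and MMP11 to the calls in ETV4 KD and changed no other call of a named member. With DESeq2, 6 were higher and 10 lower in crowded, 2 higher and 8 lower in ETV4 KD, and 27 differed: ADAM8, ADAM28 and ADAMTS9 lost their crowding calls, ADAM12 and ADAM28 their difference, and MMP11 gained a call in ETV4 KD. With edgeR without its count filter, 6 were higher in crowded, without ADAM8 and ADAMTS9. Members higher in crowded numbered 8, and 5, 4 and 5 with limma at a pseudocount of 0.5, of 1, and without its filter; those lower numbered 11, and 5, 7, 4 and 5 with limma at 0.5, 0.1, 1 and without its filter. With an absolute log2 fold change over 1, 2 were higher and 7 lower, and with glmTreat 2 and 6. In ETV4 KD, 2 were higher, and 1 with limma without its filter and 1 with glmTreat; 7 were lower, and 4 with limma at 0.5, at 1 and without its filter, 1 with a log2 fold change over 1 and 2 with glmTreat. With its filter limma tested 14364 genes on crowding, against 17672 with edgeR, and without it 19472. Its pseudocount damps fold changes at low FPKM. What part either had in the calls lost with limma was not tested. On simulated data limma made too many false calls. Leaving out each library gave 5 to 8 higher and 9 to 11 lower in crowded, 2 to 5 higher and 5 to 9 lower in ETV4 KD, and 21 to 30 that differed. The median log2 fold change then ran from -0.0492 to 0.0265 on crowding, so its sign is not fixed, and from -0.30 to -0.20 in ETV4 KD. Summed CPM in place of FPKM gave treated over control ratios of 1.05 for MMPs and 0.979 for ADAMTS on crowding, and of 0.928 for MMPs and 0.968 for ADAMs in ETV4 KD, against 1.08, 1.01, 0.947 and 1.06. MMP14 turned to 0.02 with limma on crowding (0.0166 at a pseudocount of 0.5, also without its filter, 0.017 at 0.1 and 0.0161 at 1), and ADAM9 ran from -0.224 to 0.0159 on crowding with each library left out. In ETV4 KD, ADAM28 then ran from -0.084 to 0.672, ADAMTS13 from -0.0798 to 0.420, TIMP3 from -0.409 to 0.104 and ADAMTS5 from -0.166 to 0.0054; none of these was called with all libraries. Of 778 values of named members under the settings that kept all libraries, 732 kept their side of the thresholds, 38 lost a call, 4 gained one and 4 reversed. The causes were not tested. Depth limits members under 50 reads per library, such as ADAM12, ADAM28 and ADAMTS18.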
